A study of Mus musculus with 6 samples.

Results

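MAP kinase cascades pass a signal through up to 4 tiers of protein kinases, and the mRNAs of all 4 tiers are described here in cultures labelled as C2C12 myotubes. Myotubes are muscle cells with several nuclei, and C2C12 is a mouse myoblast line that can form them. The kinases were chosen by name: every protein-coding row of the deposited gene table named Mapk, Map2k, Map3k or Map4k followed by a number was taken, which gave 43 of 54924 gene rows (13 Mapk, 7 Map2k, 18 Map3k and 5 Map4k genes). The name rule itself used no measured value, though it was set with earlier results of these data known. The control group was 3 libraries of myotubes without kaempferol, and the kaempferol group was 3 libraries of myotubes given 25 μM kaempferol, a plant flavonol, for 24 h. Cells of both groups had spent 6 days in medium with horse serum to differentiate. The study's methods describe replating after differentiation, but their account of the sequenced cultures does not state it. The label was borne out only in part by the markers given at the end. Des, Acta1, Myh3 and Mylpf were well expressed. Other muscle markers ranged from 0 (Tnnc2) and 4.66 CPM (Ckm) up to 41.5 CPM (Tnnc1) in the control libraries. Genes of dividing cells were high, so the share of myotubes in these cultures is not known. Polyadenylated RNA was sequenced, and the libraries held 16575790 to 18625272 counts. All libraries are from 1 cell line. Separate cultures are not stated for the libraries of a group, so that the spread behind the p-values may be technical. The counts are of mRNA and carry no information on phosphorylation, by which these kinases are switched on and off.

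In a cascade, a MAP4 kinase or a small GTPase acts on a MAP3 kinase, which phosphorylates a MAP2 kinase, which in turn phosphorylates a MAP kinase on a threonine and a tyrosine of its activation loop. The classical ERK branch (Map2k1 and Map2k2 to Mapk3) carries growth factor signals and holds back the differentiation of myoblasts. The p38 branch (Map2k3 and Map2k6 to Mapk14, Mapk11, Mapk12 and Mapk13) promotes myogenic differentiation, the JNK branch (Map2k4 and Map2k7 to Mapk8, Mapk9 and Mapk10) carries stress and cytokine signals, and the ERK5 branch (Map2k5 to Mapk7) has been linked to the fusion of myoblasts. The residue between the threonine and the tyrosine is glutamate in ERK1 and ERK5, proline in the JNKs and glycine in the p38 kinases. It therefore sets the JNK and p38 kinases apart but does not separate ERK1 from ERK5. The coding sequence around these residues is shown for 7 conventional MAP kinases with clear expression, because it is the stretch on which the tiers meet. Each stretch has 33 bases, 5′ to 3′ on the coding strand, with the 3 codons of the motif in capitals, and was read from the transcripts of GENCODE M21 on build mm10.
Mapk3 (ERK1, exon 4, chr7:126763446-126763478): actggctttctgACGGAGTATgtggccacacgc
Mapk7 (ERK5, exon 4, chr11:61491410-61491442): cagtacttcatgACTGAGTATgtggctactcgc
Mapk8 (JNK1, exon 6, chr14:33392991-33393023): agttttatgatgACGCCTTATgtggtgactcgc
Mapk9 (JNK2, exon 6, chr11:49872818-49872850): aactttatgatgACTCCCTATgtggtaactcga
Mapk14 (p38 alpha, exon 7, chr17:28728387-28728419): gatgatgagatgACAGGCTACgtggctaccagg
Mapk11 (p38 beta, exon 7, chr15:89145854-89145886): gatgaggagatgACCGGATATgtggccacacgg
Mapk12 (p38 gamma, exon 7, chr15:89134664-89134696): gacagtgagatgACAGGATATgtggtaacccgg

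Levels between genes were compared as CPM (a gene's read count relative to the TMM-scaled total of its library) per kilobase of the gene length given in the table. In the control libraries the MAP4 kinase tier was led by Map4k4, an activator of the JNK branch, at 47.7 ± 0.649 CPM per kb (SD, n = 3). The next members of that tier were Map4k3 at 9.96 and Map4k5 at 8.21 CPM per kb, with no overlap between the libraries of neighbouring genes, while Map4k1, best known from blood cells, was at 0.213 CPM per kb. The MAP3 kinase tier spread over a wider range. Map3k7 (TAK1, the kinase of TGF-beta and cytokine signals) was highest at 20.4 ± 1.11 CPM per kb, followed by Map3k3 (MEKK3) at 16.8, Map3k11 (MLK3) at 14.2 and Map3k10 (MLK2) at 10.8 CPM per kb. Map3k14 (NIK) at 3.70 and Map3k12 (DLK) at 3.66 CPM per kb overlapped between libraries and could not be ordered. Map3k5 (ASK1), a sensor of oxidative stress, was among the lowest tested MAP3 kinases at 0.150 CPM per kb, and its libraries overlapped those of Map3k13 and Map3k9.

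All 7 MAP2 kinases were expressed, and their libraries did not overlap between neighbours in the order Map2k3, Map2k1, Map2k2, Map2k4, Map2k7, Map2k5 and Map2k6. The p38 activators stood at both ends, Map2k3 at 42.8 ± 0.429 CPM per kb and Map2k6 at 3.20 ± 0.187 CPM per kb. Among the MAP kinases Mapk3 (ERK1) was highest at 59.3 ± 1.58 CPM per kb. Mapk6 (ERK3), an atypical MAP kinase that MAP2 kinases do not activate, was at 29.9 ± 0.245 CPM per kb, above Mapk14 (p38 alpha) at 22.8 ± 0.619 CPM per kb. Mapk9 (JNK2) was at 10.3 CPM per kb, Mapk12 (p38 gamma, known for its expression in skeletal muscle) at 8.78 and Mapk7 (ERK5) at 8.74 CPM per kb, and the last pair overlapped between libraries. Mapk11 (p38 beta) was at 6.42, Mapk8 (JNK1) at 4.39, Mapk4 (ERK4) at 0.663 and Mapk15 (ERK8) at 0.307 CPM per kb. Over the 4 tiers, 15 of the 43 genes exceeded 10 CPM per kb.

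**Figure D1:**
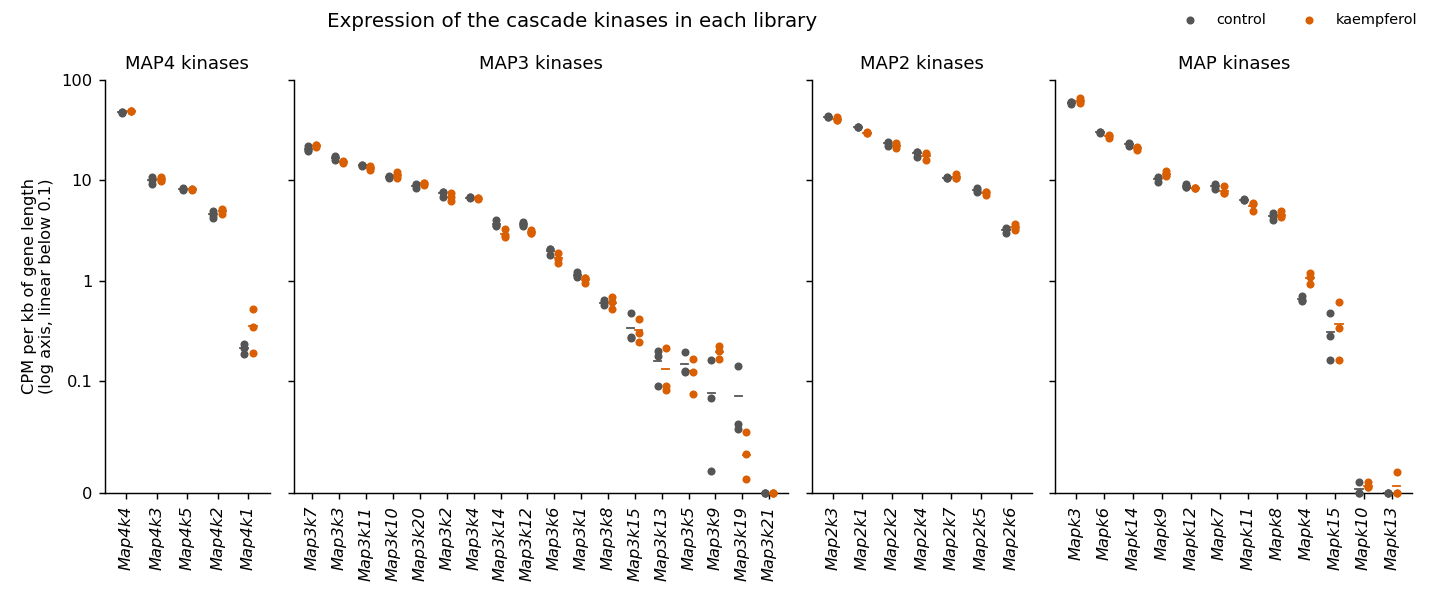
CPM per kilobase of gene length (log axis, linear below 0.1) of the cascade kinases described here in each of the 6 libraries, ordered within each tier by the control mean; dots are libraries (grey control, orange kaempferol) and dashes are group means. Map4k4, Map3k7, Map2k3 and Mapk3 led their tiers in the control libraries, and the libraries of both groups lay close together for most genes.

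Of the 43 kinases, 39 had enough counts to be tested with edgeR's quasi-likelihood test. The other 4 were Map3k19 with 31 counts over all libraries, Mapk10 (JNK3, best known from neurons) with 6, Mapk13 (p38 delta) with 1 and Map3k21 with 0 counts. A count of 0 over all libraries allows up to 0.0286 CPM, with 3 counts taken as the floor and counting error alone considered. Mapk13 lies 20890 bases from the end of Mapk14 on the same strand of chromosome 17, and Mapk12 and Mapk11 lie 1782 bases apart on chromosome 15. Of these neighbours only Mapk13 was at or near 0 in every library.

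The changes of the cascade kinases were mostly small. With kaempferol 1 kinase rose (Mapk4) and 4 fell (Map2k1, Mapk6, Map3k12 and Map3k14) at an adjusted p under 0.05, which is 12.8% of the 39 tested. Of all 14558 tested genes 24.0% were called, 11.3% higher and 12.6% lower, and of the 12255 protein-coding ones 26.7%. The libraries of both groups did not overlap for 15 of the 39 kinases, 4 above and 11 below the control libraries, together 38.5%. Of all tested genes 38.2% had groups apart in this way, 18.6% above and 19.6% below. The median log2 fold change, kaempferol vs. control, was -0.06 over the kinases and -0.00047 over all tested genes, with 15 kinases above 0 and 24 below. The median size of the change, without its sign, was 0.10 for the kinases, 0.15 for all tested genes and 0.14 for the protein-coding ones. The tested kinases were more abundant than all tested genes (median 42.7 against 26.8 CPM). They also varied less between control libraries (median SD of log2 CPM 0.077 against 0.093). The part of both in the smaller size of the change was not tested. At an unadjusted p under 0.05, edgeR gave 4 higher and 7 lower kinases, 28.2% of those tested. The share was 35.1% of all tested genes and 38.4% of the protein-coding ones. In these bulk libraries fewer cells of a type and less RNA per cell cannot be told apart.

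The 95% intervals were narrow for the expressed members. They rest on the spread between libraries, which may be technical. Of the 31 tested kinases with a control mean of at least 5 CPM, the 95% interval of the fold change lay within 1.5-fold of no change for 31 and within 1.25-fold for 26. The 27 of them that were not called ranged from a log2 fold change of -0.23 (Map3k6) to 0.17 (Mapk9). The kinase mRNAs together came to 2643 to 2695 CPM in the control libraries and 2609 to 2635 CPM in the kaempferol libraries.

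**Figure D2:**
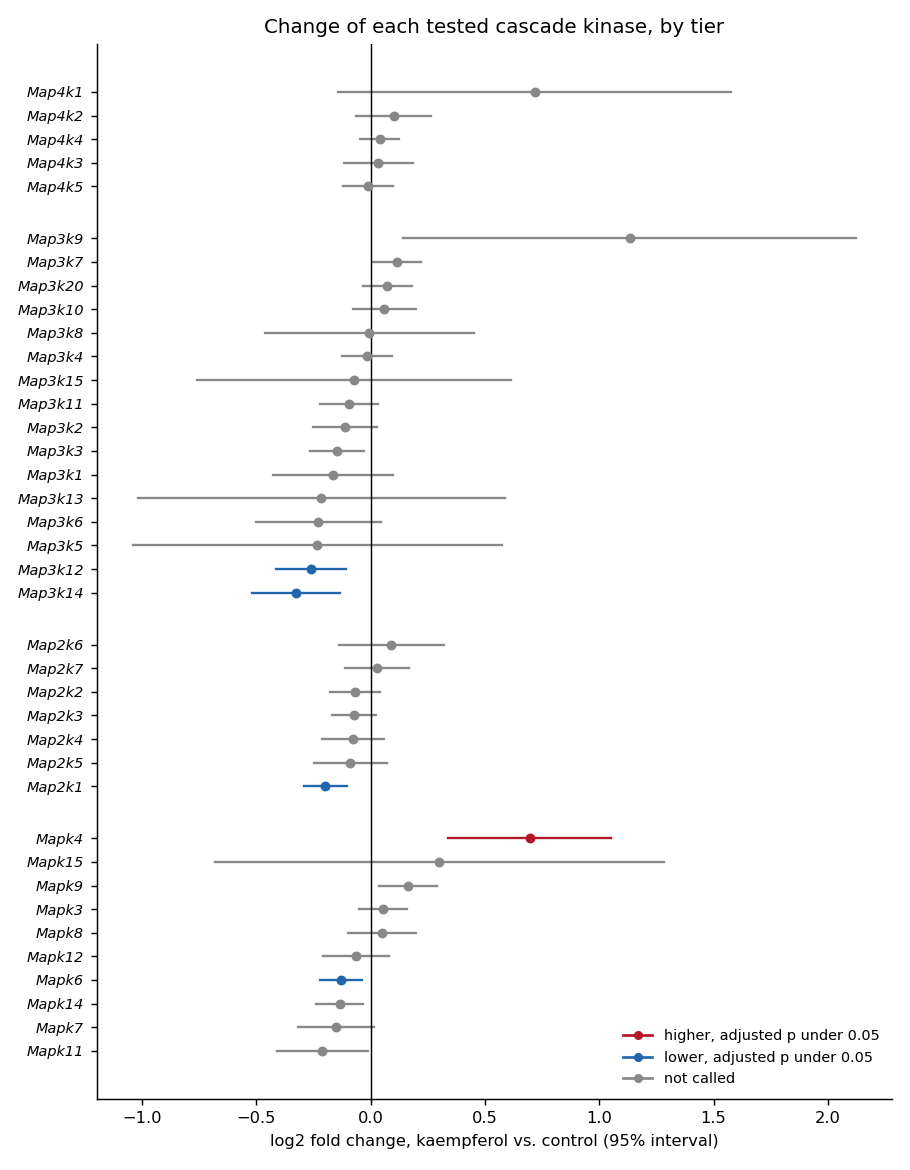
Log2 fold change, kaempferol vs. control, of the tested cascade kinases described here, by tier (3 libraries per group). Bars are 95% intervals derived from edgeR's quasi-likelihood test. Mapk4 was higher (red), Map2k1, Mapk6, Map3k12 and Map3k14 were lower (blue), and the widest intervals belonged to kinases under 5 CPM.

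Mapk4 encodes ERK4, the close relative of ERK3 that forms a complex with the kinase MAPKAPK5, and lies at chr18:73928486-74065359 on the minus strand of mm10. It had 3.47, 3.84 and 3.43 CPM in the control libraries and 5.00, 5.93 and 6.49 CPM in the kaempferol libraries. Every kaempferol library was above every control library. The mean rose from 3.58 ± 0.226 to 5.80 ± 0.751 CPM (SD, n = 3), and the log2 fold change was 0.70 (SE 0.170) with an adjusted p of 0.00600. Mapk4 was called in each of the 13 alternative settings, at log2 fold changes of 0.61 to 0.79. It is the least abundant of the 5 called kinases, with 57 to 122 counts per library.

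Mapk6, which encodes ERK3, an unstable kinase with roles in cell cycle and differentiation, moved the other way. Its control libraries had 199.7, 201 and 198 CPM and its kaempferol libraries 177, 182 and 188 CPM. The groups did not overlap, but the distance was small beside the levels: the mean was 199 ± 1.64 and 182 ± 5.49 CPM, with a log2 fold change of -0.13 (SE 0.0445, adjusted p 0.0429). The call was lost in 8 of 13 settings. Leaving out any of the libraries but kaempferol replicate 3 ended it, with adjusted p of 0.140, 0.138 and 0.0574 without control replicates 1, 2 and 3 and of 0.147 and 0.112 without kaempferol replicates 1 and 2. A transcript of the gene model Gm49037 shares 384 bases with Mapk6 at full identity, though that row held 26 counts in all. The third atypical member, Mapk15, had 0.786 ± 0.399 CPM in the control and 0.959 ± 0.594 CPM in the kaempferol libraries, and its groups overlapped.

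Map2k1 encodes MEK1, which with MEK2 is the activator of the classical ERK branch, and lies at chr9:64185770-64253631 on the minus strand of mm10. It had 116, 114 and 116 CPM in the control libraries and 102, 100.02 and 99.6 CPM in the kaempferol libraries. The libraries of each group lay within a few CPM of each other and the groups were apart. The mean fell from 115 ± 1.24 to 100.4 ± 1.06 CPM with kaempferol, and the log2 fold change was -0.20 (SE 0.0443, adjusted p 0.00323). The fall was called in each of the 13 alternative settings, at log2 fold changes of -0.21 to -0.17.

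Map2k2, encoding MEK2, had 134, 125 and 136 CPM in the control and 132, 127 and 118 CPM in the kaempferol libraries. Its groups overlapped, and its log2 fold change of -0.07 had a 95% interval of -0.18 to 0.04 (adjusted p 0.373). Whether Map2k1 and Map2k2 differed in their change was not tested. Mapk3 (ERK1) had 137, 129.98 and 135 CPM in the control and 132, 148 and 138 CPM in the kaempferol libraries, with overlapping groups. Its log2 fold change was 0.06 (95% interval -0.05 to 0.16, adjusted p 0.471).

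Map3k12 and Map3k14 were the MAP3 kinases that fell. Map3k12 encodes DLK, known in neurons as an activator of JNK signalling after axon injury, and lies at chr15:102497646-102517064. It had 34.7, 31.8 and 32.2 CPM in the control and 26.8, 26.8 and 28.6 CPM in the kaempferol libraries, with no overlap. Its mean went down from 32.9 ± 1.55 to 27.4 ± 1.02 CPM, and the log2 fold change was -0.26 (SE 0.0727, adjusted p 0.0139). The call was lost without control replicate 1 (adjusted p 0.0834) and without kaempferol replicate 2 (adjusted p 0.0504). Map3k12 shares 1573 exon bases with Pcbp2, which lies on the opposite strand and is far more abundant, at 287 CPM in the control and 269 CPM in the kaempferol libraries (log2 fold change -0.09, adjusted p 0.124). Whether the counting used strand is not given in the sources used here, and the part of Pcbp2 reads in the Map3k12 counts was not tested.

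Map3k14 encodes NIK, the kinase of the non-canonical NF-kB pathway, and lies at chr11:103219762-103267472. It had 26.3, 22.9 and 23.4 CPM in the control and 17.9, 21.5 and 18.6 CPM in the kaempferol libraries. The groups did not overlap, though the closest pair of libraries was 22.9 against 21.5 CPM. The mean fell from 24.2 ± 1.83 to 19.3 ± 1.92 CPM, and the log2 fold change of -0.33 was the lowest among the tested kinases (SE 0.0914, adjusted p 0.0148). The call was lost without control replicate 1 (adjusted p 0.0946), without kaempferol replicate 1 (adjusted p 0.0674) and without kaempferol replicate 3 (adjusted p 0.0510).

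**Figure D3:**
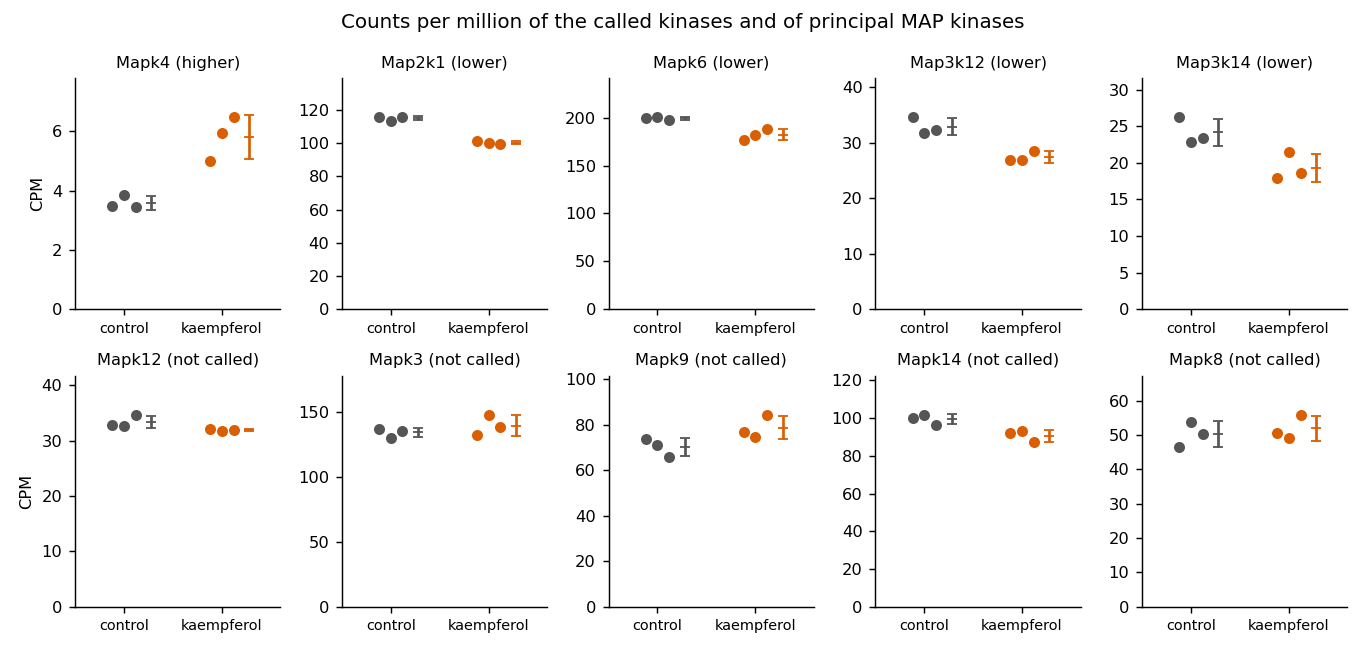
CPM in each library of the 5 called kinases (top row) and of 5 principal MAP kinases that were not called (bottom row), on linear axes from 0; dots are libraries and the bars beside them are the mean ± SD (n = 3). In the top row the groups are apart in every panel, while Mapk3 and Mapk8 in the bottom row overlap between groups.

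Of the JNK branch, no member was called. Mapk9 (JNK2) had 73.8, 71.0 and 65.8 CPM in the control and 76.8, 74.7 and 84.5 CPM in the kaempferol libraries. The groups did not overlap, and the log2 fold change of 0.17 (SE 0.0602) had an adjusted p of 0.0549. Mapk9 was called higher in 4 of the 13 alternative settings, with a lowest adjusted p of 0.0264. These were upper-quartile factors, at least 10 counts in every library, protein-coding genes alone and the fit without kaempferol replicate 2. In the last of these the adjusted p was 0.0499 and the log2 fold change 0.20. Mapk8 (JNK1) overlapped between groups, with 46.5, 53.9 and 50.3 CPM in the control and 50.7, 49.2 and 56.0 CPM in the kaempferol libraries (log2 fold change 0.05, 95% interval -0.10 to 0.20). The share of Mapk8 in the length-scaled JNK mRNA was 29.8 ± 2.26% in the control and 28.1 ± 0.0713% in the kaempferol libraries (exact permutation test, two-sided, p = 0.4, adjusted p = 0.6 over 3 shares). With 3 libraries against 3, the smallest p of this test is 0.1. The activators of this branch, Map2k4 and Map2k7, had log2 fold changes of -0.08 and 0.03 and overlapping groups.

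The p38 branch had no called member either. Mapk14 (p38 alpha) had 100.3, 102 and 96.6 CPM in the control and 91.9, 93.0 and 87.1 CPM in the kaempferol libraries. The kaempferol libraries were all below the control libraries, and the log2 fold change of -0.14 (SE 0.0487) had an adjusted p of 0.0507, just above the threshold. Without control replicate 3 it was 0.0414, with a log2 fold change of -0.16. Mapk12 (p38 gamma) had 32.9, 32.7 and 34.7 CPM in the control and 32.2, 31.7 and 32.0 CPM in the kaempferol libraries. Its groups did not overlap and lay close together (log2 fold change -0.06, 95% interval -0.21 to 0.08). Mapk11 (p38 beta) was also lower in every kaempferol library, with 18.5 ± 0.367 and 16.0 ± 1.62 CPM and a log2 fold change of -0.21 (adjusted p 0.120). Mapk14 held 59.9 ± 1.07% of the length-scaled p38 mRNA in the control and 59.7 ± 0.136% in the kaempferol libraries (exact permutation test, two-sided, p = 0.7, adjusted p = 0.7). The p38 activators Map2k3 and Map2k6 overlapped between groups, at log2 fold changes of -0.07 and 0.09.

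In the ERK5 branch Mapk7 had 35.9, 40.4 and 38.9 CPM in the control and 38.4, 32.6 and 32.7 CPM in the kaempferol libraries. Kaempferol replicate 1 lay among the control libraries, so the groups overlapped (log2 fold change -0.15, 95% interval -0.32 to 0.01, adjusted p 0.183). Its activator Map2k5 overlapped as well, at a log2 fold change of -0.09.

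Among the other MAP3 kinases, Map3k7 had 127, 139 and 127 CPM in the control and 137, 144 and 145 CPM in the kaempferol libraries (log2 fold change 0.12, adjusted p 0.103), and without control replicate 2 its adjusted p was 0.0386. Map3k7 was called with upper-quartile factors as well. A pseudogene of Map3k7, Gm8188, had 108 counts in all, against 14324 for Map3k7. Map3k3, an activator of the ERK5 and stress branches, had 69.1, 69.5 and 64.7 CPM in the control and 62.8, 59.4 and 61.4 CPM in the kaempferol libraries. Its groups were apart, with a log2 fold change of -0.15 and an adjusted p of 0.0663, which became 0.0368 without control replicate 3. Map3k9 (MLK1) had 0.116, 0.501 and 0.964 CPM in the control and 0.977, 1.32 and 1.17 CPM in the kaempferol libraries. Its groups were apart by a narrow gap, and it was counted 2 to 22 times per library. The fitted log2 fold change was 1.13 (SE 0.471, adjusted p 0.0920), and 1.86 with an adjusted p of 0.0238 without control replicate 3. With Map3k3 and Map3k7 included, 9 MAP3 kinases above 5 CPM were not called, and 6 of them had a log2 fold change below 0. Their range went from -0.23 for Map3k6 (ASK2) to 0.12 for Map3k7.

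Of the MAP4 kinases, none of the 5 tested was called. Map4k4 had 449.5, 459 and 461 CPM in the control and 472, 469 and 467 CPM in the kaempferol libraries, so the groups did not overlap although the log2 fold change was 0.04 (95% interval -0.05 to 0.13, adjusted p 0.542). Map4k2, Map4k3 and Map4k5 overlapped between groups at log2 fold changes of 0.10, 0.03 and -0.01. Map4k1 had 0.655 ± 0.0733 and 1.09 ± 0.512 CPM, with overlapping groups (adjusted p 0.225).

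The genes around the named cascade were described from lists of general knowledge, written with results of these data known. Their shares called are therefore a description only. For comparison, 24.0% of all tested genes and 26.7% of the protein-coding ones were called. Upstream, 0 of 18 tested RAS and RAF genes were higher and 3 were lower (16.7% called, median log2 fold change -0.04). Rasa1 and Nf1, both GTPase-activating proteins that switch RAS off, had log2 fold changes of -0.23 (adjusted p 0.00150) and -0.26 (adjusted p 0.00650), and Braf, the RAF kinase with the strongest basal activity towards MEK, had -0.21 (adjusted p 0.0464) with overlapping groups. Without control replicate 2, 1 gene of this list was lower. Kinases that act on the cascade under other names had 1 higher and 5 lower of 16 tested (37.5% called, median -0.10). Pak1, an effector of the GTPases RAC and CDC42 that phosphorylates MEK1, fell from 174 ± 5.15 to 123 ± 2.14 CPM (log2 fold change -0.50, adjusted p 2.9e-07). Its relative Pak3 had -0.25 and Stk24, a MAP4 kinase-like enzyme, had -0.18. Irak4, the proximal kinase of Toll-like and interleukin-1 receptors, was the higher one at 0.28 (adjusted p 0.0489), with overlapping groups. The count of this list fell to 0 higher and 1 lower without control replicate 1 or control replicate 2, to 0 and 3 without kaempferol replicate 1 and to 0 and 2 without kaempferol replicate 2.

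Scaffolds and adaptors had 5 higher and 4 lower of 27 tested (33.3% called, against 26.7% of protein-coding genes, median -0.05). Gadd45a, a stress-inducible protein that binds and activates MAP3K4, rose from 33.5 ± 3.96 to 57.6 ± 6.12 CPM (log2 fold change 0.78, adjusted p 3.26e-06). Txn1, thioredoxin, which in its reduced form inhibits ASK1, rose from 429 ± 6.21 to 564 ± 27.0 CPM (0.40, adjusted p 4.31e-06). Arrb1, beta-arrestin 1, a scaffold of ERK signalling, and Flnc, the muscle filamin, fell at log2 fold changes of -0.50 (adjusted p 0.000564) and -0.47 (adjusted p 5.08e-07). Without kaempferol replicate 2 this list had 3 higher and 3 lower.

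Downstream, 5 of 9 tested kinases that MAP kinases activate were called (55.6%, against 26.7% of protein-coding genes). Of these 2 were higher and 3 lower, and the median of the list was 0.18. Rps6ka4 (MSK2) fell from 147 ± 8.64 to 119 ± 3.28 CPM (log2 fold change -0.30, adjusted p 0.000261) and Rps6ka3 (RSK2) from 97.4 ± 5.81 to 80.1 ± 2.68 CPM (-0.28, adjusted p 0.000867). Rps6ka2 (RSK3) rose from 35.6 ± 1.37 to 43.2 ± 2.43 CPM (0.28, adjusted p 0.00693). Mapkapk2 (MK2), the main p38 effector kinase, fell from 165 ± 3.97 to 142 ± 4.74 CPM (-0.22, adjusted p 0.00208). Each of these kinases had groups that did not overlap. In all 13 alternatives 3 kinases of the list were lower, with 1 higher without kaempferol replicate 2, 3 higher without kaempferol replicate 3 and with upper-quartile factors, and 2 higher in the rest. Of 15 tested transcription factors that are substrates of MAP kinases, 2 were higher and 2 lower (26.7%, median -0.09). Creb1 and Atf2 had log2 fold changes of -0.27 and -0.22 and Elk1 and Max of 0.22 and 0.18, while DESeq2 and the fit with a replicate block each called 0 of this list higher and 2 lower. With any 1 library left out, 1 factor was higher, and 1 to 4 were lower (1 without control replicate 1 or 2, and 4 without kaempferol replicate 3).

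**Figure D4:**
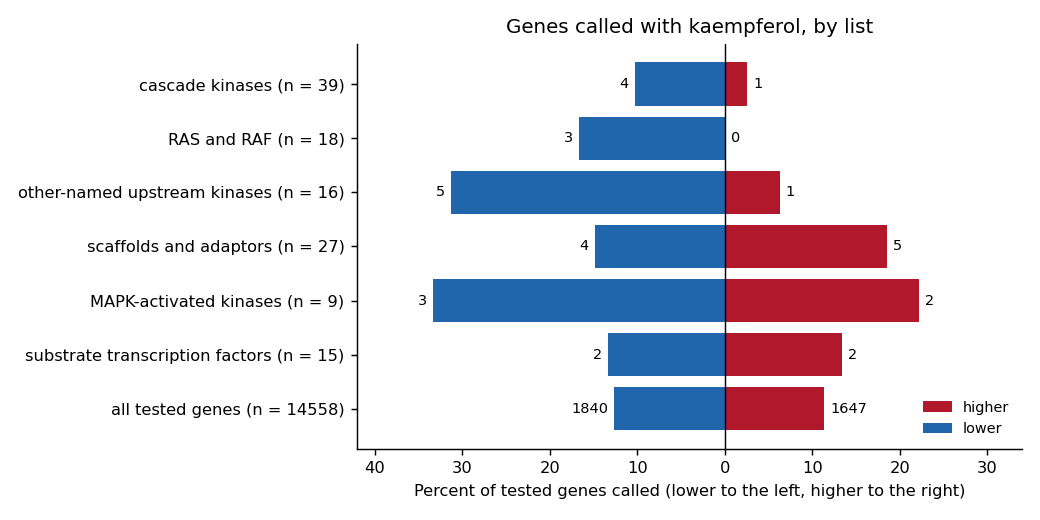
Percent of the tested genes of each list called lower (blue, to the left) or higher (red, to the right) with kaempferol at an adjusted p under 0.05, with the number of genes at each bar. Cascade kinases had 4 lower and 1 higher of 39, MAPK-activated kinases 3 lower and 2 higher of 9, and all tested genes 1840 lower and 1647 higher of 14558.

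The cultures were checked against cell type markers. The summed level of 22 myotube markers was 1109 to 1254 CPM in the control and 1129 to 1237 CPM in the kaempferol libraries, with 3 higher (Acta1, Tnnc1 and Myog) and 3 lower (Myh4, Mymx and Des) of 19 tested. Tnnc2, a defining gene of fast fibres, was at 0 in every library and Ckm, the muscle creatine kinase, was at 4.66 CPM in the control libraries. Des, the muscle intermediate filament desmin, had 652 CPM there, and Acta1, skeletal actin, 194 CPM. Myh3 and Mylpf had 79.3 and 77.9 CPM in the control libraries, and Tnnc1, Tnnt3 and Ryr1 had 41.5, 20.3 and 18.2 CPM. Myh4 and Casq1 were at 1.67 and 0.680 CPM. Mki67 and Top2a, which mark dividing cells, had 665 and 737 CPM in the same libraries. The 10 markers of undifferentiated or dividing cells summed to 2470 to 2579 CPM in the control and 1907 to 1989 CPM in the kaempferol libraries. Of these, 6 were lower (Mki67, Top2a, Ccnb1, Cdk1, Cdc20 and Plk1), while Pax7, Myf5, Id1 and Id3 were not called. The 5 fibroblast markers summed to 1084 to 1198 and 726 to 760 CPM, with 2 lower (Col1a1 and Dcn) and 1 higher (Pdgfra). Col1a1 alone had 1083 CPM in the control and 669 CPM in the kaempferol libraries, while Pdgfra rose from 38.7 to 53.0 CPM. Both sums, carried by the dividing-cell genes and Col1a1, moved with the treatment, as did the 5 called kinases. The part of these markers in the changes of the kinases was not tested. Markers of adipocytes summed to under 1 CPM in every library, with Adipoq, Cidec, Lep and Cfd at 0, those of endothelial cells to 1.32 to 2.40 CPM, those of leukocytes to 17.9 to 20.97 CPM with Adgre1 at 0, and those of neurons to 21.4 to 26.2 CPM with Rbfox3 at 0. Cd14 carried most of the leukocyte sum and Tubb3 most of the neuron sum, at 15.7 and 24.1 CPM in the control libraries. The osteoblast markers summed to 72.2 to 90.1 CPM in the control and 72.7 to 73.5 CPM in the kaempferol libraries, with Ibsp at 0. Runx2 carried most of that sum, at 80.2 CPM in the control and 71.7 CPM in the kaempferol libraries, and was not called. Bglap2 was called higher at a low level, 0.271 CPM in the control and 1.18 CPM in the kaempferol libraries. Control replicate 3 stood apart from the other control libraries on the second principal component (14.4% of the variance, against 46.8% on the first), and without it the kinases had 2 higher (Mapk4 and Map3k9) and 5 lower (Map2k1, Map3k3, Map3k12, Map3k14 and Mapk14).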

How the data were processed

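Unnormalised read counts of each gene were deposited by the authors for all 6 libraries in a single table. In the submitters' processing notes stand genome build mm10 and the tools fastp, StringTie 1.3.3b, HISAT2 2.0.5 and, for counting and testing, DESeq2 1.20.0 and featureCounts 1.5.0-p3. The strand setting of the counting is not given in the sources used here. Kaempferol labels write the line as C2C13, and each library carries a dedifferentiation tag. One treatment protocol, with kaempferol in it, stands for controls as well, and the groups therefore rest on each library's title and treatment tag. C2C13 was read as C2C12, the line that the study's methods name.

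The deposited counts were fitted in edgeR 4.0.16 under R 4.3.3. The default filter was used (minimum count 10, minimum total 15), libraries were scaled with TMM factors, and both groups were compared with the quasi-likelihood test with Benjamini-Hochberg adjustment over 14558 tested genes. A gene was called at an adjusted p under 0.05. CPM values use the TMM-scaled library sizes. The fit was tested on simulated data. Replicate libraries differed from each other by more than counting error. Shares within a subfamily used counts per kilobase and an exact permutation test. Alternatives were to leave out each library in turn, to add a block for the replicate number, to fit protein-coding genes alone, to drop the filter or ask for 10 counts in each library, to scale by RLE or upper-quartile factors, and to test with DESeq2 1.42.0.

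The members and the gene lists were chosen with earlier results of these data known. The members are accounted for, except that 1 member and its share of its subfamily enter the counts and are not reported singly here: called members and the principal MAP and MAP2 kinases are given by library, the others by tier, and up to 4 called genes with the largest change are named from each other list. Map3k3, Map3k7, Map3k9 and Map4k4 were given by library after their values were seen, and Pcbp2, Gm49037 and Gm8188 were named after their overlap or identity with a member was found. Of the 43 members 41 have the same coordinates in GENCODE M21. Transcripts were compared with blastn 2.17.0.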

Additional observations from a re-analysis of the deposited data

How the results depend on the processing

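The direction of the 5 called kinases held in all 13 alternatives. Mapk4 and Map2k1 stayed called throughout, at adjusted p of up to 0.0304 and 0.0277, while Mapk6 was lost in 8, Map3k14 in 3 and Map3k12 in 2. The kinases called higher numbered 3 with upper-quartile factors (Map3k7 and Mapk9 beside Mapk4), 2 with at least 10 counts in every library and 2 with protein-coding genes alone (Mapk9 in both), against 1 in the reported fit, and 1 to 2 when each library was left out in turn. Those called lower numbered 1 to 5 when each library was left out, with 1 (Map2k1) without control replicate 1, 2 (Map2k1 and Map3k12) without kaempferol replicate 1 and 2 (Map2k1 and Map3k14) without kaempferol replicate 2, against 4. Over all genes 1647 were higher and 1840 lower. Upper-quartile factors turned this split to 1966 higher and 1424 lower, DESeq2 gave 1251 and 1510, and leaving out each library gave 1209 to 1546 higher and 1210 to 1628 lower. The median log2 fold change of the kinases stayed below 0, from -0.07 without a filter to -0.01 without control replicate 1. The difference in the Mapk14 share was -0.20 percentage points and 0.28 without control replicate 2. Causes of these differences were not tested.

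The replicate numbers did not pair the libraries, since deviations of libraries with the same number correlated at -0.02, -0.06 and -0.05. With the number as a block, 1337 genes were higher and 1413 lower, and of the kinases 1 was higher and 3 were lower, Mapk6 being lost (log2 fold change -0.13, adjusted p 0.121). No control library correlated best with the kaempferol library of its own number.

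Counts limit the 8 tested members under 5 CPM: the interval reached beyond 1.5-fold for 7 of them. Mapk4 was called among these, and for the other 6 the interval leaves a change of that size possible. Poly(A) capture and unstated strand limit values of genes that overlap others, such as Map3k12 with Pcbp2, Map3k15 with Pdha1 and Map3k11 with Pcnx3.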
